A study of Canis lupus familiaris with 28 samples.

Results

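The neutrophil granule and receptor genes examined here were S100A8, S100A9, S100A12, CSF3R, CXCR2, FPR1, MPO, LTF and MMP9. They were found by taking every array probe whose gene name equals one of these symbols, which gave 16 probes for 8 of the 9 genes, out of 43603 probes with 34382 different names on the array. No probe carries the name FPR1. S100A8, S100A9, S100A12, CSF3R, CXCR2 and FPR1 are treated as genes of mature neutrophils and MPO, LTF and MMP9 as granule genes. RNA came from the blood of 20 dogs with atopic dermatitis (AD dogs) and 8 healthy dogs, all privately owned, with 1 two-color array for each dog. According to the methods, AD dogs were sampled while clinical signs were visible and healthy dogs were blood donors, both groups held several breeds and both sexes, the AD group included dogs younger than any healthy dog, and routine blood cell counts lay in the reference range in all of them. Breed, sex and age were not entered in any test. The sample labels name whole blood as the source, whereas the series title speaks of nuclear cells of peripheral blood, and the RNA was collected in tubes that stabilise unseparated blood. On every array the dog's RNA was labelled with Cy5 and a pool of RNA from 13 healthy dogs, the common reference, with Cy3.

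Neutrophils are the most abundant white cells of canine blood and are released from the bone marrow in response to G-CSF, which acts through CSF3R. They are drawn to sites of inflammation by chemokines such as CXCL8, which binds CXCR2, and by formylated bacterial peptides, which bind FPR1. S100A8 and S100A9 pair to form calprotectin, the main protein of the neutrophil cytoplasm, and S100A12 is a related calcium-binding alarmin. MPO is stored in azurophil granules, LTF (lactoferrin, an iron-binding protein) in specific granules and MMP9 (gelatinase B, a matrix protease) in gelatinase granules. Messenger RNA for the early granule proteins is made mainly by precursors in the bone marrow.

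The probes on which the results turn are shown 5′ to 3′ as printed in the files, in lower case. Capitals mark the stretch in which neighbouring probes of the same gene overlap, since such probes do not measure the gene independently. For MMP9 this stretch includes 1 base that differs.
S100A8 (A_11_P0000033530): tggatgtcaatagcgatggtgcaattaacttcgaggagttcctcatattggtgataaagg
S100A9 (A_11_P0000033532): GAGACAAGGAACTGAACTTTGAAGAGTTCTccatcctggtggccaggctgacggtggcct
S100A9 (A_11_P139421): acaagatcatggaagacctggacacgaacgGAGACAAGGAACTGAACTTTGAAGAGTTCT
S100A12 (A_11_P0000033531): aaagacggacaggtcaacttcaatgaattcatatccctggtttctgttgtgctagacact
CSF3R (A_11_P085186): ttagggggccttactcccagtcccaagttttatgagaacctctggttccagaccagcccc
CXCR2 (A_11_P051226): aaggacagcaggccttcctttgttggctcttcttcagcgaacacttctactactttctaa
LTF (A_11_P0000028837): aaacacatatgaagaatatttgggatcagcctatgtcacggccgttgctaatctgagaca
MMP9 (A_11_P0000019937): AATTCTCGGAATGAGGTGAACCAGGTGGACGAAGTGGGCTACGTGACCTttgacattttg
MMP9 (A_11_P053796): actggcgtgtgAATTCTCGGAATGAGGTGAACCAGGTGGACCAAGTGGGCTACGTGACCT
MMP9 (A_11_P053471): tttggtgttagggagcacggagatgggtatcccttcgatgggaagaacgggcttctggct
Both S100A9 probes share 30 bases. The first 2 MMP9 probes share a stretch of 49 bases with 1 mismatch, C42G, which gives the base of A_11_P053796, the position counted from the 5′ end of that probe, and the base of A_11_P0000019937. Between the probes of different S100 genes the longest exact run of shared bases was 6. All 16 probes are 60 bases long and have at least 1 reading frame in the printed direction without a stop before the last codon. Exons, introns and untranslated parts are not annotated in the files.

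The files give positions for the canFam3 build. The S100A8 probe lies at chr7:43541449-43541508, the S100A12 probe at chr7:43555298-43555357 and the S100A9 probes at chr7:43567198-43567257 and chr7:43567228-43567287. The CSF3R probes lie on chromosome 15, the CXCR2 probe on chromosome 37, the MPO probe on chromosome 9, the LTF probes on chromosome 20 and 4 of the 5 MMP9 probes on chromosome 24. The fifth MMP9 probe, A_11_P0000019576, has no position.

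There were 8 slides and 5 scan days, each of which held dogs of 1 group, so slide and disease cannot be told apart. In the channel of the dog, the share of probes well above background ranged from 84.3% to 90.3% for healthy dogs and from 51.7% to 87.5% for AD dogs. The 6 arrays of scan day 5 (AD dogs 15 to 20) had at most 63.2%, and AD dog 14 had 60.2%. No spot was saturated on any array, so none of the values is capped. The common reference, the same RNA throughout, gave different levels on arrays of AD dogs and arrays of healthy dogs at 39.4% of the 30202 probes tested (limma, adjusted p of at most 0.085).

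Values are log2 ratios of the dog's processed signal to that of the common reference, centered on the median of each array. A log2 ratio of 0 means that the dog stood at the level of the pool, relative to the array as a whole. Log2 fold changes subtract the healthy mean of these ratios from the AD mean, and they were tested with limma and adjusted by Benjamini-Hochberg over 30202 probes. At an adjusted p of at most 0.085, 0% of these probes were called (0 of 30202), and 6.12% had an unadjusted p under 0.05. Of the 16 probes, 13 passed the filter on signal, and they represent 7 genes. Where a gene has several tested probes, the one with the highest mean signal is given first.

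None of the 13 tested probes differed between AD and healthy dogs by limma, and 0 of them had an unadjusted p under 0.05. Their adjusted p-values were 0.843 or higher. The 13 log2 fold changes were above 0 over all 28 arrays, between 0.07 and 0.80, whereas 47.9% of all probes tested were above 0. These 13 values come from the same dogs, and several probes target the same gene, so they do not count as separate observations. The median log2 fold change was 0.18 over the 5 mature genes and 0.35 over LTF and MMP9, beside -0.0096 over all probes. In whole blood, a change in the number of neutrophils and a change in the RNA of each neutrophil cannot be told apart.

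**Figure D1:**
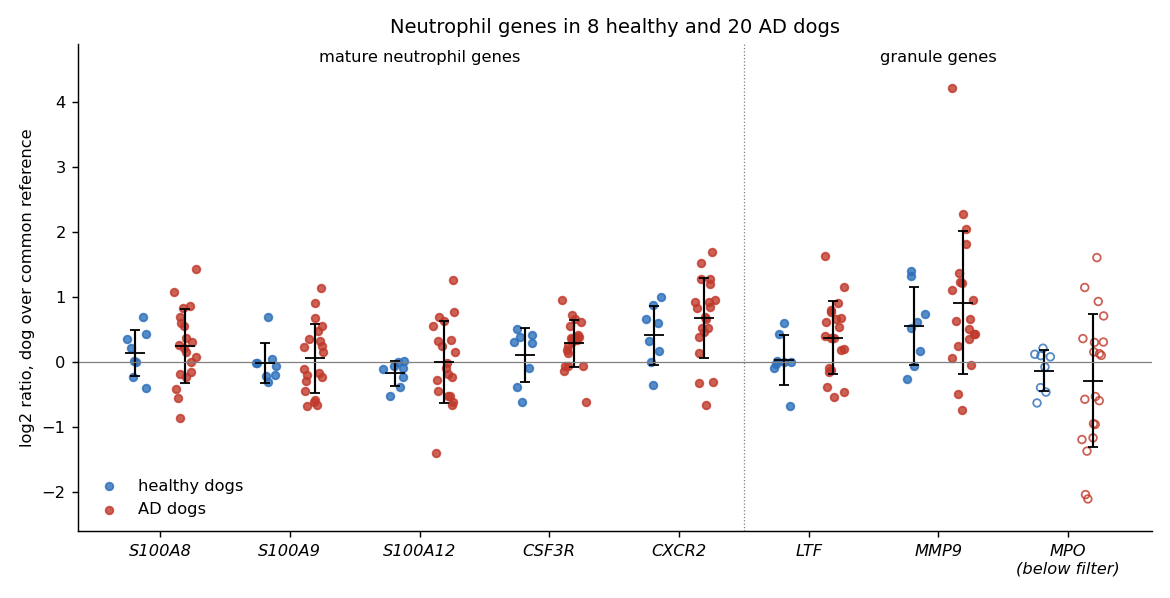
Log2 ratio of dog to common reference (vertical axis) for the brightest tested probe of each gene, 1 point for each dog, with healthy dogs in blue, AD dogs in red, and bars for the mean and SD. MPO, drawn with open circles, did not pass the signal filter. Groups overlap for every gene, and AD dog 19 stands alone at 4.22 for MMP9.

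Among the S100 genes, AD dogs covered a wider range than healthy dogs, with similar middle values. A range over 20 dogs tends to be wider than a range over 8, and the SD was larger in AD dogs at 77.6% of all probes tested. S100A8 log2 ratios ran from -0.39 to 0.70 around a median of 0.13 in healthy dogs, and from -0.86 to 1.43 around a median of 0.24 in AD dogs. AD dog 16 was highest and AD dog 7 lowest, 12 of 20 AD dogs lay above the mean of healthy dogs, and the groups overlapped. AD dogs averaged 0.26 ± 0.57 (SD, n = 20) and healthy dogs 0.14 ± 0.36 (SD, n = 8). This gave a log2 fold change of 0.11 with an error of 0.21 (SE) and a 95% interval of -0.32 to 0.54 (limma, adjusted p = 0.933). It was 0.037 without healthy dog 2, 0.19 without healthy dog 7 and 0.25 with normexp background correction and loess.

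For S100A9 the brighter probe gave healthy dogs log2 ratios of -0.31 to 0.70 with a median of -0.04, and AD dogs ratios of -0.67 to 1.14 with a median of 0.03. Healthy dog 7, at 0.70, lay well above the other healthy dogs, which were at most at 0.052. This log2 fold change was 0.07 (SE 0.20, 95% interval -0.33 to 0.47), and the overlapping second probe gave 0.08. Without healthy slide 2, which held healthy dogs 1 to 4, the first of these values was -0.0013, and it was 0.0094 without AD dog 16 and 0.17 without healthy dog 7. The 2 probes followed each other over the 28 arrays (r = 0.99), as a description of overlapping probes.

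S100A12 showed the tightest healthy dogs among the brightest probes, at -0.51 to 0.02 (median -0.10, SD 0.19). AD dogs spread from -1.40 to 1.27 (median -0.05, SD 0.62). Of the 20 AD dogs, 9 lay above every healthy dog and 5 below every healthy dog. Such counts, here and for the other genes, were not made over all probes. The mean difference was still small, with a log2 fold change of 0.18 (SE 0.22, 95% interval -0.27 to 0.62), and 0.11 without AD dog 16.

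A few dogs stood apart in all 3 S100 genes. AD dogs 2 and 16 were above every healthy dog for S100A8, S100A9 and S100A12 by their brightest probes. AD dog 7 was below every healthy dog for all 3, at -0.86 for S100A8, -0.66 for S100A9 and -1.40 for S100A12. In this dog the receptors did not follow, since CSF3R was at 0.37 and CXCR2 at 0.93.

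CSF3R, the receptor for G-CSF, read by its brighter probe, had a healthy range of -0.61 to 0.52 with a median of 0.30, and an AD range of -0.62 to 0.96 with a median of 0.36. AD dog 2 was highest and AD dog 17 lowest. On average AD dogs were higher by 0.18 on the log2 scale (SE 0.16, 95% interval -0.14 to 0.50), and the second probe gave 0.17. The value depended on which healthy slide was used. Healthy dogs 1 to 4 (slide 2) had a mean of 0.39 ± 0.10 (SD, n = 4), whereas healthy dogs 5 to 8 (slide 3) had -0.17 ± 0.43 (SD, n = 4). The log2 fold change turned to -0.10 without slide 3 and reached 0.46 without slide 2, with an unadjusted p of 0.032 and an adjusted p of 0.806 from limma. Without healthy dog 5 alone it was 0.079. The second CSF3R probe kept its direction without either slide, at 0.11 without slide 3 and 0.23 without slide 2. In the common reference the brighter CSF3R probe was 0.28 higher on the log2 scale on the arrays of AD dogs (SE 0.061, adjusted p = 0.00177 by limma), although the RNA was the same, and the second probe there differed by -0.18.

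CXCR2, the receptor for CXCL8, reached log2 ratios between -0.35 and 1.00 in healthy dogs, with a median of 0.47, and between -0.65 and 1.70 in AD dogs, with a median of 0.77. Its log2 fold change was 0.27 (SE 0.23, 95% interval -0.20 to 0.74, limma adjusted p = 0.872). This value was 0.16 without healthy dog 8, 0.17 with normexp and loess, and 0.13 after quantile normalization of the log2 ratios. A total of 5 AD dogs lay above every healthy dog, and AD dog 17 lay below every healthy dog.

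FPR1 has no probe of its own name. A single probe, A_11_P112426, is named FPR2 on the array while its description reads formyl peptide receptor 1, so which of these receptors it detects was not settled. Healthy dogs lay between -0.71 and 1.03 on the log2 ratio (median -0.05), AD dogs between -0.62 and 1.64 (median 0.15). Between the groups it differed by a log2 fold change of 0.14 (SE 0.22, limma adjusted p = 0.917). The common reference of this probe was 0.72 higher on the log2 scale on the arrays of AD dogs (SE 0.16), and the dog's channel by itself was 0.84 higher in AD dogs (SE 0.23, adjusted p = 0.0453 by limma).

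**Figure D2:**
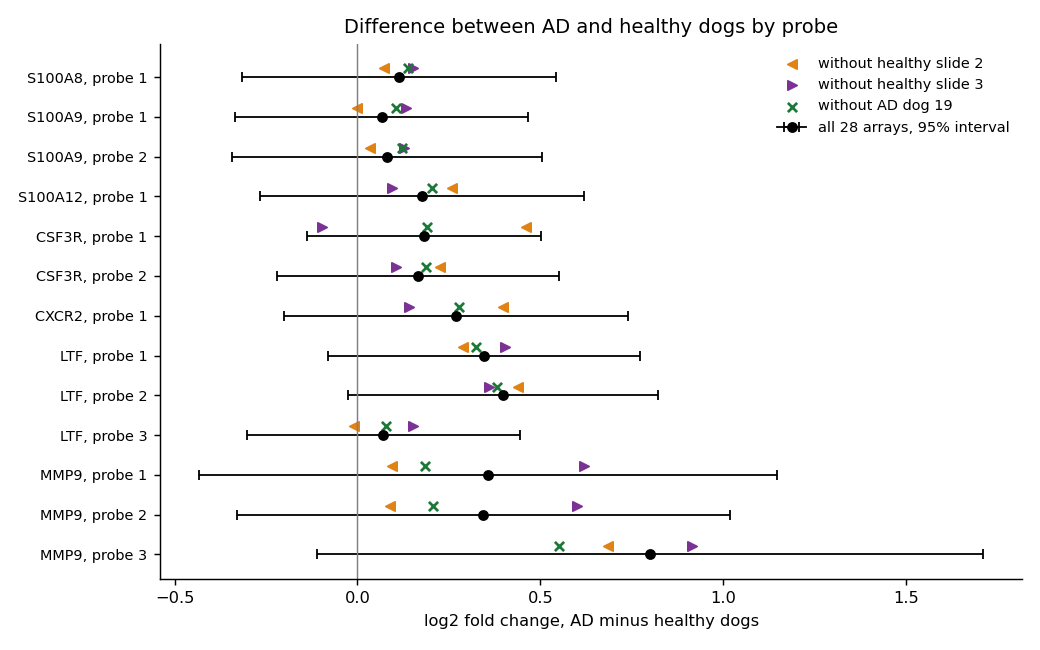
Log2 fold change of AD minus healthy dogs (horizontal axis) for the 13 tested probes, numbered within a gene by brightness. Black points and bars give the value over all 28 arrays with its 95% interval, and colored marks give the value without healthy slide 2, without healthy slide 3 and without AD dog 19. Every interval includes 0, and the marks of CSF3R probe 1 lie on both sides of 0, at -0.10 and 0.46.

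LTF had 3 tested probes with different values. Its brightest probe had a healthy median of 0.0031 (lowest -0.67, highest 0.60) and an AD median of 0.39 (lowest -0.53, highest 1.63). AD dogs 2 and 14 were highest at 1.63 and 1.17, 8 of 20 AD dogs lay above every healthy dog, and none lay below all of them. LTF had a log2 fold change of 0.35 (SE 0.21, 95% interval -0.08 to 0.77, by limma an unadjusted p of 0.109 and an adjusted p of 0.866). The second probe, A_11_P052111, gave 0.40 (SE 0.21, unadjusted p = 0.0648 by limma, the smallest among the members) with 12 of 20 AD dogs above every healthy dog. The third, A_11_P00000688, whose target starts at base 136 of the transcript against 2119 and 1560 for the other two, gave 0.07, and -0.01 without healthy slide 2. Without the arrays of scan day 5, the log2 fold changes were 0.42, 0.46 and 0.13, with unadjusted p-values of 0.0448, 0.0275 and 0.505 and 9.29% of all probes under 0.05.

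The LTF result changed with the use of the common reference. In the dog's channel alone, quantile normalized between arrays, the brightest LTF probe was 0.68 higher in AD dogs (SE 0.20, adjusted p = 0.0613 by limma). With this scale 3.49% of all probes were called, and 1.32% of all probes were called as higher in AD dogs. LTF was the only 1 of the 7 genes called. The common reference of the same probe was itself 0.36 higher on the arrays of AD dogs (SE 0.081, adjusted p = 0.00248), and the ratio takes this difference out. The third LTF probe was at -0.0032 in the dog's channel alone.

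MMP9 varied more between AD dogs than any other tested gene of the group. The brightest probe, A_11_P0000019937, had a healthy median of 0.58 (lowest -0.26, highest 1.41) and an AD median of 0.65 (lowest -0.73, highest 4.22). Its SD was 1.105 in AD dogs, a value exceeded by 0.934% of all probes tested, and 0.60 in healthy dogs. MMP9 had a log2 fold change of 0.36 (SE 0.39, 95% interval -0.43 to 1.15), and it fell to 0.18 without AD dog 19. It was 0.094 without healthy slide 2 and 0.62 without healthy slide 3. The overlapping probe A_11_P053796 gave 0.34.

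The third tested MMP9 probe, A_11_P053471, had the largest log2 fold change among the members, 0.80, with an SE of 0.45 (limma, unadjusted p = 0.0832, adjusted p = 0.856). Its signals were low, with a median of 137 for AD dogs against 154 for healthy dogs. On the 6 arrays of scan day 5 its common reference was well above background on 0 arrays, with a median signal of 9.53 beside 113 on the other arrays of AD dogs and 120 on those of healthy dogs. Without scan day 5 the log2 fold change was 0.24, and without AD dog 19 it was 0.55, with an unadjusted p of 0.0462 and 6.47% of all probes under 0.05 by limma. Without use of the reference, the dog's channel gave 0.015. The other 2 MMP9 probes did not pass the signal filter. Their median signals in AD dogs were 67.5 for A_11_P053481 and 49.9 for A_11_P0000019576.

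AD dog 19 carried an MMP9 level apart from all others. Its dog signal on the brightest probe was 42953 against a common reference of 2320, and the next AD dog reached a log2 ratio of 2.28 against 4.22. The second probe gave 3.49 in this dog, with 2.12 in the next. Its common reference signal on the array of dog 19 was 3175, beside a median of 1313 over all arrays. For the brightest probe the median over all arrays was 1702. On A_11_P053471 and A_11_P053481 the ratios of 5.83 and 5.34 rest on common reference signals of 7.49 and 11.5, which were not well above background, so the size of these ratios is not determined. In dog 19, LTF was above every healthy dog at 0.78 by the brightest probe and 0.84 by the second. The third LTF probe was at 0.041, inside its healthy range of -0.67 to 0.72. S100A9 in dog 19 was at -0.67 by the brighter probe and -0.77 by the second, below every healthy dog. These S100A9 values were close to those of AD dog 7, at -0.66 and -0.89. Over all dogs the brightest MMP9 probe and A_11_P053471 had an r of 0.71, and of 0.37 without this dog.

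In the same dog the markers of eosinophils and basophils and those of B cells stood high. The mean log2 ratio of 8 tested B cell markers was 0.63, the highest of all dogs, with a healthy range of -0.41 to 0.22. The mean log2 ratio of the 6 tested markers, of 10 listed, was 2.03 in AD dog 19, where the AD dogs started at -0.53 and healthy dogs spanned -0.26 to 0.31. CPA3, a protease of mast cells and basophils, was at 5.81 with a dog signal of 4234, beside a median signal of 130 over all dogs, and the next highest dog was at 2.24. FCER1A, a chain of the high-affinity IgE receptor, was at 1.89 and MS4A2, another chain of it, at 0.84, both the highest of all 28 dogs. GATA2, a transcription factor of these lineages, was at 2.51, but its signals of 39.7 for the dog and 7.02 for the reference were low on this array. IL5RA and CCR3, receptors of eosinophils, were at 0.45 and 0.68 and did not lead. EPX, PRG2 and PRG3 have no probe, and HDC did not pass the filter. The part of these cells in the MMP9 value was not tested.

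**Figure D3:**
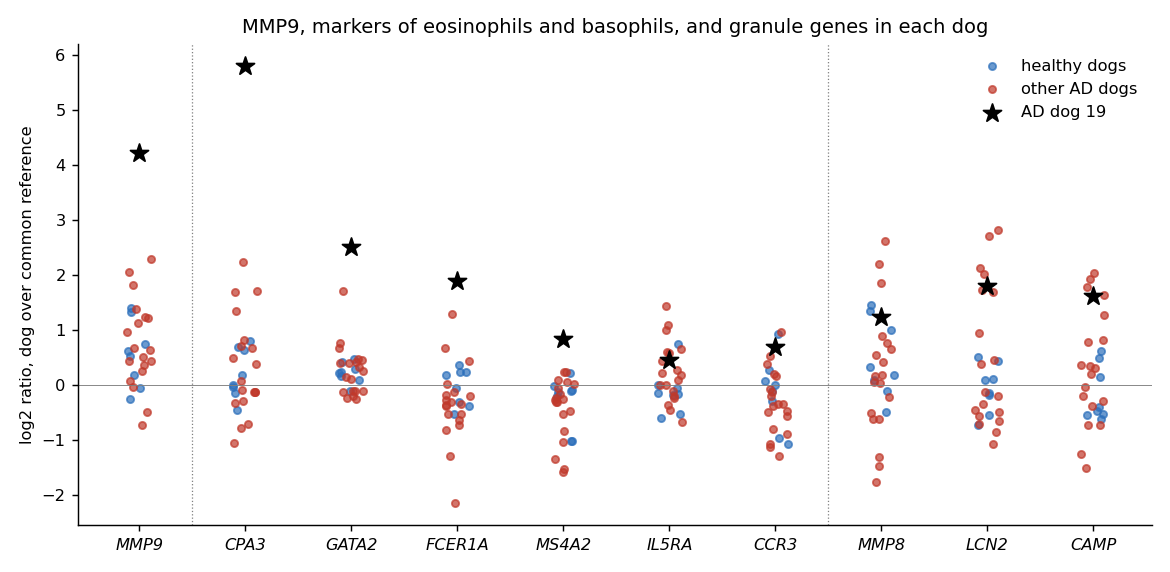
Log2 ratio of dog to common reference (vertical axis) for MMP9, 6 markers of eosinophils and basophils and 3 granule genes, with 1 point for each dog and a star for AD dog 19. The star is the highest point for MMP9, CPA3, GATA2, FCER1A and MS4A2, and lies inside the range of the other dogs for IL5RA, CCR3, MMP8, LCN2 and CAMP.

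MPO could not be compared. Its single probe had a median dog signal of 41.6 for AD dogs against 36.2 for healthy dogs, and the dog's channel was well above background on 9 of 20 AD arrays and 2 of 8 healthy arrays. Healthy dogs spanned log2 ratios of -0.62 to 0.22, AD dogs those of -2.10 to 1.61. ELANE, another azurophil granule gene, was detected on all 28 arrays.

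The values of all dogs side by side showed that a few AD dogs were high in most of these genes. No AD dog was low across all of them, and AD dog 7 was below every healthy dog in 3 of 7, the S100 genes. By the brightest probe of each gene, AD dog 2 was above every healthy dog in all 7 tested genes, and AD dogs 14 and 16 in 5 of 7. The 6 AD dogs 1, 3, 7, 11, 17 and 20 were above every healthy dog in none by these probes. The second LTF probe put AD dogs 1, 3 and 7 above every healthy dog (0.59, 0.60 and 0.66, healthy highest 0.34). By the second CSF3R probe the same held for AD dogs 3 and 7 (0.78 and 0.62, healthy highest 0.42). AD dog 17 was the lowest AD dog for CSF3R, CXCR2 and LTF and stood at 1.24 for MMP9. The SD of 11 of 13 probes was larger in AD than in healthy dogs, as was that of 77.6% of all probes tested. Without scan day 5 this share of all probes was 66.8%.

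**Figure D4:**
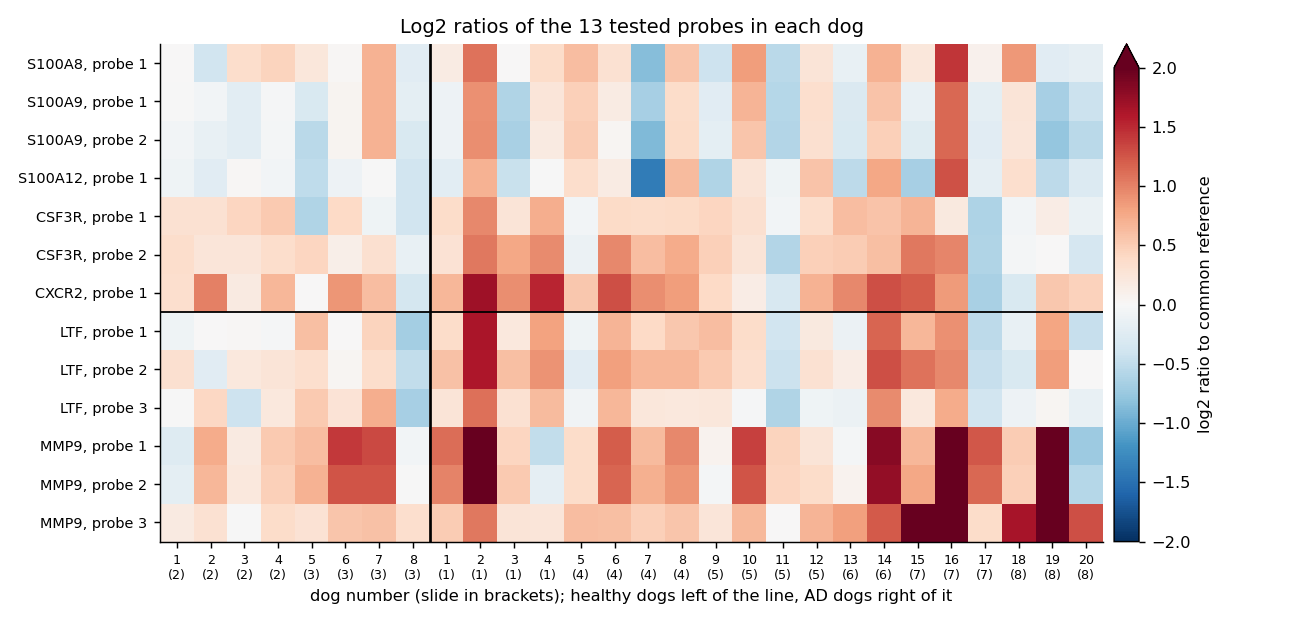
Log2 ratio of each of the 13 tested probes (rows) in each dog (columns, with the slide in brackets), healthy dogs to the left. Color runs from blue (below the common reference) to red (above it) and is capped at 2, which MMP9 exceeded in AD dogs 2, 15, 16 and 19 by at least 1 probe. Columns of AD dogs 2, 14 and 16 are red in most rows, and AD dog 7 is blue for the S100 genes only.

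Slides within AD dogs were compared with the moderated F test of limma, by which 5.28% of all probes differed between the 6 slides at an adjusted p of at most 0.085. None of the 13 probes did, and A_11_P053471 of MMP9 had the smallest unadjusted p, 0.0227 (adjusted p = 0.211). Its mean log2 ratio was 1.95 on slide 7 and 2.92 on slide 8, both of scan day 5, and 0.39 to 1.02 on the other 4.

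Relations between members were computed for 5 pairs within each group, which gave 10 relations, and p-values were adjusted over them. In AD dogs S100A8 followed S100A9 with a Pearson r of 0.93 and a Spearman rho of 0.93 (permutation test, two-sided, n = 20, p = 1e-05 for both, the smallest that 100000 permutations can give, adjusted p = 5e-05 and 1e-04). S100A8 and S100A12 had an r of 0.87 and a rho of 0.84 (permutation p = 1e-05 and 3e-05, adjusted 5e-05 and 0.000133). CSF3R and CXCR2 had an r of 0.86 and a rho of 0.80 (permutation p = 2e-05 and 4e-05, adjusted 6.67e-05 and 0.000133). Without the 2 dogs farthest from the median of the first gene, r was 0.90, 0.76 and 0.76 for these pairs. After slide means were subtracted, these values were 0.97, 0.90 and 0.87.

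LTF and MMP9 were more loosely related in AD dogs, with an r of 0.52 and a rho of 0.51 (permutation p = 0.0176 and 0.0212, adjusted 0.044 and 0.0531). The r was 0.54 without AD dogs 2 and 17 and 0.63 with slide means removed. For MPO and LTF, r was 0.22 and rho 0.19 (permutation p = 0.363 and 0.411, adjusted 0.363 and 0.456), with MPO near background. After AD dogs 4 and 14, the farthest for MPO, were left out, r was 0.58 (permutation p = 0.0103).

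In the 8 healthy dogs the 5 pairs had an r of 0.46 to 0.66 and a rho of 0.24 to 0.64, and none passed adjustment (exact permutation test, adjusted p of 0.155 or higher for r and 0.192 or higher for rho). Removal of slide means gave an r of 0.45 to 0.68. Without the 2 farthest healthy dogs, S100A8 and S100A9 had an r of -0.08 and CSF3R and CXCR2 one of -0.04. The r was then 0.40 for S100A8 with S100A12, 0.07 for MPO with LTF and 0.60 for LTF with MMP9. This removal narrows the range of the first gene and leaves 6 dogs, so it cannot show what the relations rest on. Whether the relations differ between the groups was not tested.

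**Figure D5:**
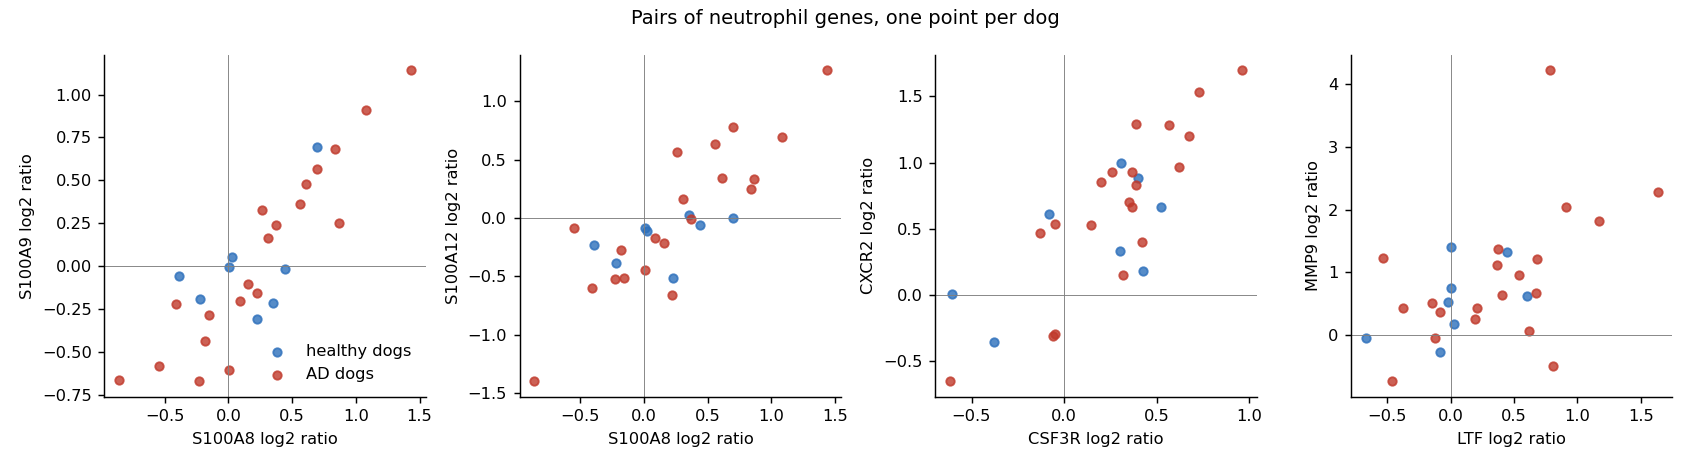
Log2 ratios of 4 pairs of genes by their brightest probes, with 1 point for each dog (healthy dogs blue, AD dogs red). The points of AD dogs lie close to a line for S100A8 with S100A9 (r = 0.93) and spread more for LTF with MMP9 (r = 0.52), where AD dog 19 is the point at 4.22.

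The genes whose log2 ratio was most like that of CSF3R over the 28 arrays, with slide means removed, were CYTIP (r = 0.83), MPP1 (0.82), CXCR2 (0.82), SEC14L1 (0.80) and TRIOBP (0.80), out of 10984 gene names with a median r of 0.028. The same list could not be made for MPO, which had no tested probe. For S100A8, S100A9 (r = 0.91) and S100A12 (r = 0.86) led this order. For LTF the first names were ATP6V0D1 (0.93), ATP6V0A1 (0.89), FURIN (0.89), GMIP (0.88) and PNPLA2 (0.88), and those for S100A8 and LTF were looked up after the values had been seen. Arrays share slides and the common reference, and these values are descriptions.

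Other neutrophil genes were taken from 7 lists with 77 genes, of which 58 have a probe and 53 a tested one. By limma 0 of the 53 were called, 3 were higher in AD dogs and 2 lower at an unadjusted p under 0.05, beside 1.65% and 4.46% of all probes. Their median log2 fold change was 0.054.

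Azurophil granule genes were represented by 7 of 10, with a median of 0.0013, 4 above 0 and none under 0.05. ELANE, neutrophil elastase, averaged 0.25 in AD and -0.06 in healthy dogs and differed by 0.31 on the log2 scale (SE 0.18, limma unadjusted p = 0.104). GUSB, a lysosomal enzyme, had one of 0.24 (unadjusted p = 0.211).

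Of the 14 genes of specific and gelatinase granules 9 were tested, and their median of 0.24 was the largest of the 7 lists. PGLYRP1, a peptidoglycan-binding protein stored beside LTF, had an AD median of 0.92 (lowest -0.87, highest 3.52) and a healthy median of 0.013 (lowest -0.46, highest 1.23). Its log2 fold change was 0.98 with an SE of 0.40 and by limma an unadjusted p of 0.0204 and an adjusted p of 0.637. LCN2 (neutrophil gelatinase-associated lipocalin) and CAMP (cathelicidin) had log2 fold changes of 0.62 and 0.57 with SEs of 0.44 and 0.37. MMP8, the neutrophil collagenase, had one of -0.22. TIMP1, the inhibitor that binds MMP9, was lower in AD dogs, at -0.38 (SE 0.18, unadjusted p = 0.0418, adjusted p = 0.782). The mean log2 ratio over these 9 genes was 1.55 in AD dog 2, the highest, and 0.95 in AD dog 19.

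Surface receptors gave 13 tested genes of 19, with 7 above 0 and a median of 0.054. CXCR4, which holds neutrophils in the bone marrow, was higher by 0.39 on the log2 scale with an SE of 0.18 (limma, unadjusted p = 0.0373, adjusted p = 0.758), and ITGAM one of 0.16 (unadjusted p = 0.241). CXCR1 has no probe. Of the 7 ligands of the member receptors 3 were tested. CXCL8 was higher by 0.65 with an SE of 0.28 (limma, unadjusted p = 0.0299, adjusted p = 0.712), where healthy dogs spanned -1.94 to 0.45 and AD dogs -1.19 to 1.48. Healthy dogs 1 to 4 (slide 2) lay between -0.23 and 0.45 for CXCL8. On slide 3, healthy dogs 5, 7 and 8 were at -1.30, -1.94 and -0.90, and dog 6 at -0.06. The lowest healthy CXCR4 values, -0.96 and -0.97, were those of dogs 5 and 7, with dogs 1 to 4 between -0.34 and 0.52. How the CXCL8 and CXCR4 differences depend on the healthy slide was not tested. PPBP, a platelet chemokine, had a log2 fold change of -0.37 (unadjusted p = 0.181 by limma), and CSF3 did not pass the signal filter.

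Partners of the S100 proteins (6 tested of 8) had a median of 0.0032, with ANXA2 at 0.18 (unadjusted p = 0.186) and S100A6 at -0.17 (unadjusted p = 0.248). All 6 genes of the NADPH oxidase, the enzyme of the respiratory burst, were tested and had a median of 0.015. RAC2, its small GTPase, had the smallest p of the related genes, at a log2 fold change of -0.30 with an SE of 0.11 (limma, unadjusted p = 0.0137, adjusted p = 0.577), and CYBB had -0.30 (unadjusted p = 0.158). Genes of granulocyte transcription and signalling (9 tested of 13) had a median of 0.14. SPI1 was at 0.39 (unadjusted p = 0.082) and GFI1 at -0.26 (unadjusted p = 0.261).

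Marker genes of other blood cells gave 43 tested genes of 56, with 0 called and 0 at an unadjusted p under 0.05. Red cell markers had the largest median log2 fold change, 0.41, with 8 of 8 tested genes above 0, ALAS2 at 0.63 (unadjusted p = 0.125 by limma) and AHSP at 0.52 (unadjusted p = 0.257). Their mean log2 ratio spanned -1.62 to 1.27 for AD dogs against -1.28 to 1.19 for healthy dogs. Platelet markers had a median of -0.22, with 1 of 5 above 0, GP1BA at -0.49 and ITGB3 at -0.38. The medians of T cell, B cell, monocyte, and eosinophil and basophil markers were -0.053, 0.019, 0.028 and 0.038. CD3E (0.28) and CD28 (0.48), PAX5 (-0.41), CD68 (0.54) and CD163 (-0.28), and IL5RA (0.37) and CPA3 (0.40) were among the genes with the smallest p-values in these lists. In AD dog 16, where the S100 genes were highest, the mean log2 ratio of the B cell markers was the lowest of all dogs at -0.96 and that of the monocyte markers was 0.24. In AD dog 2 these means were -0.48 and 0.17. The part of other cells in the values of the neutrophil genes was not tested.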

How the data were processed

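The authors scanned the arrays and extracted spots with Agilent Feature Extraction, version 10.7.3.1 per the labels and 10.10.1.1 per the file headers. The deposited values are intensities on a linear scale, background subtracted and Lowess normalized between dyes, and the authors' table of processed values holds a log10 ratio of the same channels. Values were read with R 4.3.3 and version 1.17.8 of its data.table package, tested with limma 3.58.1 and plotted with matplotlib 3.10.9. After removal of control spots 43803 were left, with outlier spots set to missing and spots of a probe averaged. Probes that no array showed well above background in any channel, or with all 4 medians (both channels, both groups) at most 100, were removed, which left 30202. Log2 ratios were centered on the array median and compared with lmFit and eBayes. Tests were checked on simulated data with independent arrays and, for each probe, the same SD in both groups. This check does not cover slides that hold 1 group or an SD that differs between the groups. Replicates are separate dogs, whose number limits the precision. Of several probes of a gene, the one with the highest mean signal stood for it. Related genes named were the 2 with the smallest unadjusted p in each list and CXCR1, FPR2, ELANE, CAMP, LCN2, TIMP1 and CSF3, and MMP8 and the markers described in AD dog 19 were named after their values had been seen. A gene that this rule names is not reported here. The members and lists were chosen with earlier results of these data known. Alternatives varied the filter, outlier and saturated spots, background correction, centering, reference, source of values, slide, scan day, dog number, array weights, variance model and arrays included. Flow cytometry, ELISA and PCR were not analysed here.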

Additional observations from a re-analysis of the deposited data

Results flagged for a closer look

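The S100A9 probe A_11_P0000033532 stood at 0.696 on the log2 ratio in healthy dog 7, and the healthy dog nearest to it at 0.052. The gap was 0.642 of the range of the 8 healthy dogs, above Dixon's 95% critical value. It was the only 1 of 17 probes examined in healthy dogs (the 16 member probes and the probe described as formyl peptide receptor 1) to pass, and chance alone passes about 1 in 20 such groups. The overlapping S100A9 probe A_11_P139421 did not pass, although healthy dog 7 was at 0.70 there and the next healthy dog at 0.056. Without healthy dog 7, the log2 fold change of S100A9 was 0.17 in place of 0.07.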

How the results depend on the processing

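The count of probes called over the whole array was 3 with no filter on signal, 1053 in the dog's channel alone and 849 with array weights, in place of 0. Member genes called were 1 of 7 (LTF) and member probes called 1 of 13 in the dog's channel alone, and 0 under the other alternatives. Counts over member probes, and the removal of scan day 5 together with AD dog 14, were added after the data had been seen. By the brightest probe of each gene, log2 fold changes turned sign in 3 cases, S100A8 to -0.0317 with the share of probes well above background as a covariate, S100A9 to -0.0013 without slide 2 and CSF3R to -0.10 without slide 3. The cause was not tested. Of all 13 probes, 11 were above 0 in the dog's channel alone, with that covariate and without slide 2, and 12 without slide 1 and without slide 3. Over 26 alternatives the median log2 fold change was 0.047 to 0.26 for mature genes and 0.19 to 0.55 for granule genes. With each dog left out in turn, the counts stayed at 0 and these medians were 0.11 to 0.20 and 0.25 to 0.43. Of the 10 relations between members, 4 passed as reported and 3 to 5 under the alternatives. Dog numbers in the titles name different animals, and same-numbered dogs did not regularly deviate together (r of -0.36 to 0.42 over 8 pairs, over 0.1 in 4, and 0 healthy dogs best with their own number). With the number as a replicate block, 0 probes were called, 5177 had an unadjusted p under 0.05 in place of 1847, and the medians were 0.14 and 0.39. AD dogs whose number no healthy dog carries are fitted exactly by their own block term and do not inform these values. This alternative thus rests on the 8 pairs alone, and its counts cannot be set against those of all dogs as an effect of pairing. With slide as a random block 1201 probes were under 0.05, without scan day 5 2807 and without slide 3 785. Setting saturated spots to missing changed nothing, since there were none. MPO could be compared with no filter on signal alone, at a log2 fold change of -0.19. Low signal on the arrays of scan day 5 limits the MMP9 probe A_11_P053471, and MPO was low in both groups.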
